A study of Homo sapiens with 6 samples.

Results

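The miR-183 cluster is a set of 3 microRNAs, hsa-miR-183-5p, hsa-miR-96-5p and hsa-miR-182-5p (written below without the species prefix), cut from hairpins on a shared transcript, and it was followed here in the vesicles shed by colorectal cancer cells. Its members were taken by name, 3 of the 2575 mature miRNA entries counted in each library. Small RNA libraries had been made from exosomes, small vesicles that cells release, out of medium conditioned by HCT116, an established human colorectal cancer line at passage 16 to 19. The 3 libraries titled ETBF came from cells kept for 6 h together with enterotoxigenic Bacteroides fragilis (ETBF), a gut anaerobe that makes a toxin, at a multiplicity of infection of 500 bacteria per cell. The 3 libraries titled untreated came from cells given the bacterial medium without ETBF. All 6 share the cell line and the exosome preparation, and no separate culture is named for any replicate, so every p-value here reflects variation from library to library, part or all of which can be technical. The names of the deposited files give the opposite group in 6 of 6 libraries. Groups follow the sample titles, and should the file names be correct instead, each direction given here turns round while sizes, errors and p-values stay.

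MicroRNAs are short RNAs that guide Argonaute proteins to messenger RNAs, chiefly through pairing of their seed, bases 2 to 8. The cluster was first known from sensory cells of the ear, eye and dorsal root ganglia, where miR-96 matters for hair cells and its seed mutations cause hereditary hearing loss. In epithelial tumours, colorectal ones among them, its members are commonly raised. miR-96 represses the transcription factor FOXO1, miR-182 represses FOXO1 and FOXO3, and miR-183 represses EGR1.

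The mature sequences come from RefSeq, build GRCh38.p14, where all 3 members matched and each had 1 locus, on the minus strand of chromosome 7. They are shown because the members differ little in the bases that choose targets; capitals mark the seed.
miR-183-5p: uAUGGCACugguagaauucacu
miR-96-5p: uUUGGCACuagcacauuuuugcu
miR-182-5p: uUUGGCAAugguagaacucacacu
miR-183-5p lies at chr7:129774967-129774988, miR-96-5p at chr7:129774739-129774761 and miR-182-5p at chr7:129770447-129770470 in that build, which is not the one the submitters name. The hairpins of MIR183 and MIR96 are 135 bases apart, MIR96 and MIR182 are 4199 bases apart, and the 3 span 4632 bases. The nearest protein-coding genes on either side are NRF1 and UBE2H, and no other annotated RefSeq gene overlaps the span.

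No pair of members has the same seed. Counting from 1 at the 5′ end and giving the first-named member's base first, miR-96-5p and miR-182-5p differ in the seed by C8A, and miR-183-5p and miR-96-5p by A2U. miR-183-5p and miR-182-5p differ by both A2U and C8A. All 3 hold UGGCA at bases 3 to 7, as do 10 of the 2370 mature human miRNAs in the table (0.422%). Over the aligned length, seed included, the likeness is arranged otherwise. miR-183-5p and miR-182-5p share 18 of 22 aligned bases, against 13 of 22 for miR-183-5p and miR-96-5p and 12 of 23 for miR-96-5p and miR-182-5p. One other miRNA has a member's seed, miR-1271-5p with that of miR-96-5p, and it held 2 counts over the 6 libraries. GGAG, letters known as a sorting motif for some exosomal miRNAs, occurs in 372 of the 2370 mature sequences (15.7%) and in 0 of the members.

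Counts of the members were ample for miR-182-5p and miR-183-5p and modest for miR-96-5p, in libraries of 200207 to 417321 counts in all. Levels are in CPM (counts scaled to a common library size), with each library size first adjusted by TMM, a method that sets libraries level on the bulk of their entries. A count of 3, taken as the floor, corresponds to 8.29 to 14.6 CPM. Floors and the intervals of shares cover counting error only.

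miR-182-5p was the most abundant member. It held 1807, 1568 and 2812 counts in ETBF replicates 1 to 3, against 1041, 2251 and 1509 in untreated replicates 1 to 3. As CPM that was 6085, 7074 and 8709 in ETBF libraries, against 5064, 6217 and 4833 in untreated libraries. The groups overlapped, because untreated replicate 2 stood above ETBF replicate 1.

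miR-183-5p came next. It held 1237, 961 and 1829 counts in ETBF libraries, against 601, 1365 and 1022 in untreated libraries. Its CPM was 4166, 4335 and 5665 in ETBF libraries, against 2924, 3770 and 3273 in untreated libraries. The groups did not overlap, and ETBF replicate 3 was the highest library for both this member and miR-182-5p.

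miR-96-5p lay far below the others. It held 144, 89 and 147 counts in ETBF libraries, against 57, 108 and 113 in untreated libraries. Its CPM was 484.9, 401.5 and 455.3 in ETBF libraries, against 277.3, 298.3 and 361.9 in untreated libraries. The groups did not overlap here either, but the highest library was ETBF replicate 1.

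**Figure D1:**
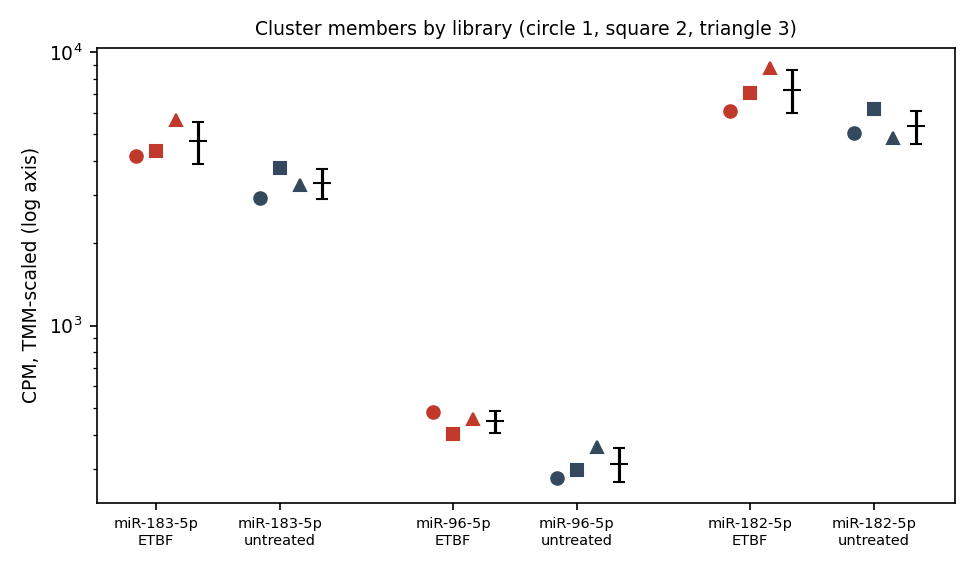
Level of each member in each library, as TMM-scaled CPM on a log axis, with ETBF left of untreated; symbols mark the replicate number, and the black mark with bars is the mean ± SD (n = 3). The order of the 3 members is the same in all 6 libraries, and the groups overlap for miR-182-5p but not for miR-183-5p or miR-96-5p.

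The order miR-182-5p, miR-183-5p, miR-96-5p held in 6 of 6 libraries. miR-182-5p made up 58.4% ± 1.63 of the cluster's counts in ETBF libraries and 59.6% ± 2.22 in untreated libraries (SD, n = 3). miR-183-5p made up 37.9% ± 1.08 in ETBF libraries and 36.9% ± 1.65 in untreated libraries. miR-96-5p made up 3.66% ± 0.758 in ETBF libraries and 3.51% ± 0.700 in untreated libraries. Each of these differences was smaller than the spread between libraries of a group. Neighbours in the order stood apart in every library, with miR-183-5p at 0.577 to 0.685 times the counts of miR-182-5p and miR-96-5p at 0.0791 to 0.116 times those of miR-183-5p. These are ratios of counts over mature lengths of 22 to 24 bases; how evenly library preparation recovers the 3 sequences was not tested.

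Among all entries of a library, miR-182-5p ranked 13 to 17 by counts in ETBF libraries and 19 to 25 in untreated libraries. miR-183-5p ranked 17 to 25 in ETBF libraries and 29 to 38 in untreated libraries, and miR-96-5p ranked 83 to 90 in ETBF libraries and 94 to 101 in untreated libraries.

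Each hairpin was represented almost wholly by its 5p arm. The hairpins of MIR96 and MIR182 are shown with the counted 5p arm in capitals.
MIR96 hairpin: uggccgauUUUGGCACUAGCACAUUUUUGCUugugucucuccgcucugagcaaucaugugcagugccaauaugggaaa
MIR182 hairpin: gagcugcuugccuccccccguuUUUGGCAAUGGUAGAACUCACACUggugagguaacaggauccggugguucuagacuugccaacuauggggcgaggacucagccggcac
Over the 6 libraries, miR-182-3p held 16 counts beside 10988 of miR-182-5p, which is 0.145% of both arms (exact 95% interval 0.0831% to 0.236%). miR-183-3p held 7 counts beside 7015 of miR-183-5p, 0.0997% of both arms (0.0401% to 0.205%). miR-96-3p held 1 count beside 658 of miR-96-5p, 0.152% (0.00384% to 0.843%). The 3p shares of the hairpins lay within each other's intervals. ETBF libraries together held 4 counts of miR-182-3p, 2 of miR-183-3p and 1 of miR-96-3p, and untreated libraries held 12, 5 and 0 counts of the same arms. All 3 were too low to enter the test.

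The comparison of the titled groups asks how contact with the bacterium alters the miRNAs of exosomes. miR-183-5p and miR-96-5p were higher in ETBF libraries, and miR-182-5p, with a similar size of difference, did not pass the test. In the edgeR quasi-likelihood fit over the 195 entries with enough counts, 2 of the 3 members were called higher and 0 lower at an adjusted p under 0.05, where 10.8% of all tested entries were called higher and 3.59% lower. DESeq2 called 1 of the 3, miR-183-5p, and limma-voom called 1, miR-96-5p. The log2 fold changes of the members ran from 0.44 to 0.51, beside a median of -0.03 over all tested entries. In exosome preparations, more vesicles that carry a miRNA and more copies per vesicle cannot be told apart.

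miR-183-5p averaged 4722 ± 820.9 CPM in ETBF libraries and 3322 ± 425.3 CPM in untreated libraries (SD, n = 3). That was 1.42-fold higher (95% interval 1.14 to 1.77), or 0.51 as a log2 fold change (standard error, SE, 0.14; edgeR adjusted p = 0.0432). The adjusted p was 0.0161 in DESeq2 and 0.0505 in limma-voom. The call was also lost without either of the third replicates. Without ETBF replicate 3 the log2 fold change was 0.35 (adjusted p = 0.151), and without untreated replicate 3 it was 0.44 (adjusted p = 0.0973).

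miR-96-5p averaged 447.2 ± 42.3 CPM in ETBF libraries and 312.5 ± 44.0 CPM in untreated libraries (SD, n = 3), 1.43-fold higher (95% interval 1.15 to 1.78; log2 fold change 0.51, SE 0.14, edgeR adjusted p = 0.0432). DESeq2 gave an adjusted p of 0.0503 and limma-voom 0.0437. It no longer passed without ETBF replicate 3 (adjusted p = 0.133) or without untreated replicate 1, 2 or 3 (adjusted p = 0.0782, 0.119 and 0.0576), although its log2 fold change then lay between 0.47 and 0.58.

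miR-182-5p averaged 7290 ± 1325 CPM in ETBF libraries and 5371 ± 741.6 CPM in untreated libraries (SD, n = 3). Its log2 fold change was 0.44 (SE 0.15, edgeR adjusted p = 0.0757). The 95% interval of that difference as a fold, 1.07 to 1.71, holds the values of both other members, so its missing the threshold does not set it apart from them. It passed without ETBF replicate 1, at 0.52 (adjusted p = 0.00102), and without untreated replicate 2, at 0.55 (adjusted p = 0.0347).

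**Figure D2:**
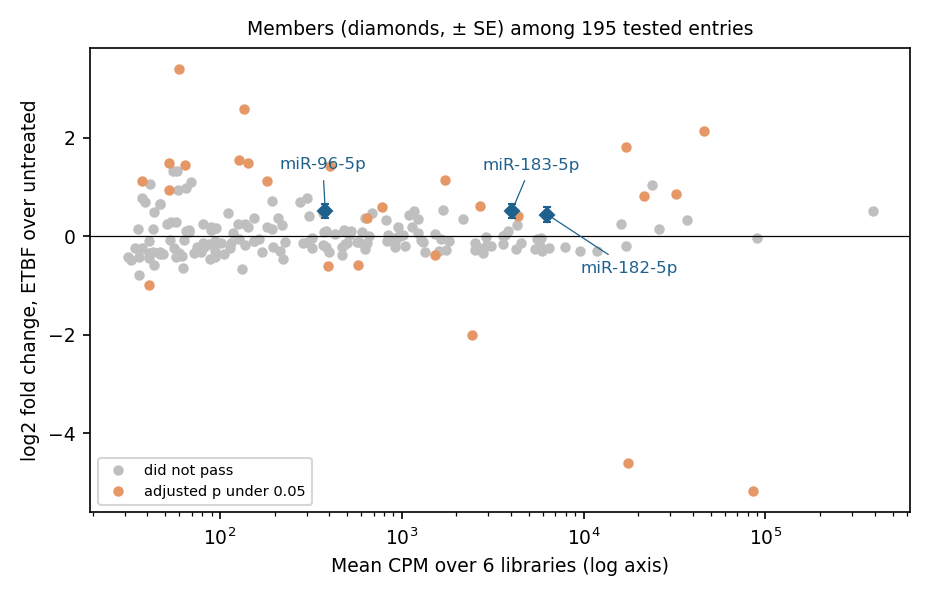
Log2 fold change of ETBF over untreated against mean CPM (log axis) for the 195 tested entries, with the 3 members as diamonds ± SE. The members lie close together at 0.44 to 0.51 although their mean levels are far apart, and other entries of both directions lie farther from 0.

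Non-overlapping groups with ETBF above were seen for 2 of the 3 members, against 19.5% of the 195 tested entries. By size, 44 tested entries (22.6%) had a log2 fold change of at least 0.4, as all 3 members did. miR-96-5p, miR-183-5p and miR-182-5p ranked 33, 36 and 42 of 195 from the largest rise, so a difference of this size was common in these libraries.

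How large the difference is depends on what the libraries are scaled to, since a few entries took very different shares of the 2 groups. Entries that overlap structural RNAs, miR-7641 foremost, held 0.531% to 0.927% of the counts in ETBF libraries and 16.1% to 28.3% in untreated libraries. miR-7-5p held on average 7.38% in ETBF libraries and 1.74% in untreated libraries. The most abundant entry, miR-148a-3p, held on average 42.3% in ETBF libraries and 32.6% in untreated libraries. In TMM-scaled CPM the groups overlapped for miR-148a-3p, and it did not pass (edgeR adjusted p = 0.290). The TMM factors were 1.19, 1.00 and 0.776 in ETBF replicates 1 to 3, against 1.03, 0.984 and 1.07 in untreated replicates 1 to 3. As a plain share of all counts, the 3 members together made up 1.27%, 1.18% and 1.15% of ETBF replicates 1 to 3 and 0.849%, 1.01% and 0.901% of untreated replicates 1 to 3. ETBF replicate 3, the highest library in CPM of miR-182-5p and miR-183-5p, was thus the lowest ETBF library in the share of the whole cluster. With the structural RNA overlaps taken out of the total, the shares were 1.29%, 1.19% and 1.15% in ETBF libraries and 1.18%, 1.20% and 1.11% in untreated libraries, and the groups overlapped.

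Tested on that last basis, an alternative chosen after the data were seen, 0 of the 3 members passed in edgeR. The log2 fold changes were 0.094 for miR-183-5p (SE 0.20, adjusted p = 0.728), 0.13 for miR-96-5p (SE 0.26, adjusted p = 0.723) and 0.022 for miR-182-5p (SE 0.20, adjusted p = 0.929). This scaling moved the log2 fold changes of all entries by a median of -0.40 and gave 11 higher and 32 lower calls, against 21 higher and 7 lower with TMM. With the same entries left out but TMM kept, there were 30 higher and 4 lower calls, and all 3 members passed, at 0.55, 0.56 and 0.49 for miR-183-5p, miR-96-5p and miR-182-5p (adjusted p = 0.0168, 0.0258 and 0.0417). Upper-quartile scaling gave 36 higher and 6 lower calls and also passed all 3.

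A ratio to other miRNAs of the same library needs no scaling. The summed counts of the 3 members were 0.825, 0.995 and 1.26 times those of the epithelial miR-200b cluster, summed over its mature entries miR-200b-3p, miR-200a-3p and hsa-miR-429, in ETBF replicates 1 to 3, against 0.691, 0.805 and 0.658 times in untreated replicates 1 to 3. The groups did not overlap, and the mean difference was 0.50 on the log2 scale. This ratio, picked after the data were seen, shows unequal change of the clusters and not which of them changed. Its size depends on the reference. With TMM the 3 reference entries had log2 fold changes of -0.06 to 0.02, so the ratio largely restates the TMM values. Other abundant entries had larger ones, such as miR-148a-3p at 0.51 and let-7i-5p at 0.85, and ratios to them were not taken.

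Whether the members moved together was read from their ratios to each other. For miR-183-5p to miR-182-5p the log2 ratio had an SD of 0.0974 over the 6 libraries, while the log2 CPM of miR-183-5p had an SD of 0.335 and that of miR-182-5p 0.314. Counting error alone gave a median SE of 0.0558 for that ratio. The ratio of this pair thus varied less than its TMM-scaled levels. Those levels share the scaling factor of their library, which cancels in a ratio, so part of their SD can come from scaling alone. With structural RNA overlaps taken out of the total, the share of the whole cluster ran only from 1.105% to 1.285% over the libraries. How closely the pair moved together apart from scaling was not tested.

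miR-96-5p had ratios to its neighbours that varied more over the libraries, but with larger counting errors. Whether it kept less closely to them beyond counting error was not tested. The SD of its log2 ratio was 0.296 to miR-182-5p and 0.229 to miR-183-5p, beside an SD of 0.324 for its own log2 CPM and median counting errors of 0.141 and 0.144 for the ratios. The counts of miR-96-5p were 0.0797, 0.0568 and 0.0523 times those of miR-182-5p in ETBF replicates 1 to 3, against 0.0548, 0.0480 and 0.0749 times in untreated replicates 1 to 3. ETBF replicate 1 and untreated replicate 3 were thus the high libraries, one in each group, and both were also high in the ratio of miR-96-5p to miR-183-5p, at 0.116 and 0.111.

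None of the 3 ratios differed between the groups by more than the spread of libraries. The log2 ratio of miR-183-5p to miR-182-5p was -0.62 ± 0.08 in ETBF libraries and -0.69 ± 0.12 in untreated libraries (SD, n = 3, exact permutation test, two-sided, p = 0.4). That of miR-96-5p to miR-182-5p was -4.02 ± 0.32 in ETBF libraries and -4.10 ± 0.33 in untreated libraries (exact permutation p = 0.6). That of miR-96-5p to miR-183-5p was -3.39 ± 0.27 in ETBF libraries and -3.41 ± 0.24 in untreated libraries (exact permutation p = 0.9). The adjusted p over the 3 ratios was 0.9 for each by the exact permutation test, and 0.1 is the smallest p that 3 against 3 libraries allow, so these tests could not have passed.

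**Figure D3:**
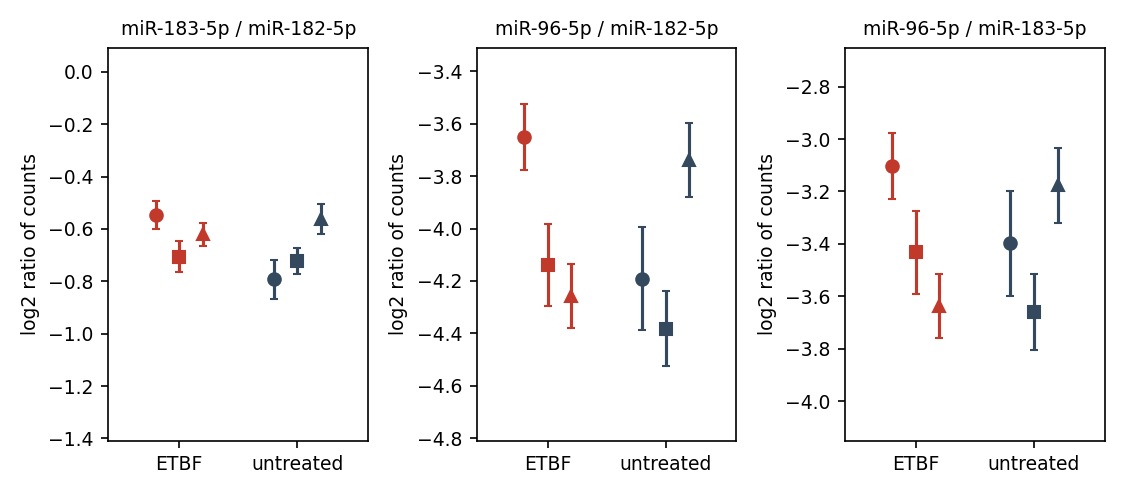
Log2 ratio of counts for each pair of members in each library, ETBF left of untreated, with bars for the counting SE and the same axis span in each panel. The points of miR-183-5p over miR-182-5p stay within -0.79 to -0.55, while ratios with miR-96-5p spread more widely within both groups.

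Another 8 clusters of co-transcribed miRNAs were set beside this one. In them 0 of 23 tested entries (24 listed) passed in edgeR or in limma-voom, 5 had an unadjusted p under 0.05 (33.8% of all tested entries did), and DESeq2 called 1, miR-192-5p. Of all 195 tested entries, 14.4% were called in edgeR. Log2 fold changes in these clusters ran from -0.42 for miR-19a-3p to 0.44 for miR-23a-3p, with a median of -0.02, and 11 were positive. The value of miR-23a-3p (SE 0.15, edgeR adjusted p = 0.0772) matched that of member miR-182-5p (0.44, SE 0.15, edgeR adjusted p = 0.0757). Some of these entries, such as miR-19b-3p, miR-92a-3p and miR-24-3p, have a locus elsewhere as well.

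The most abundant entries of these clusters gave the following values. In the miR-17~92 cluster, a growth-promoting polycistron, the log2 fold changes were 0.10 (SE 0.08) for miR-92a-3p and 0.01 (SE 0.08) for miR-20a-5p. In its paralogue miR-106b~25, miR-25-3p had 0.34 (SE 0.13) and miR-93-5p 0.00 (SE 0.10). In both clusters of the miR-200 family, repressors of ZEB1 and ZEB2, miR-200b-3p had -0.03 (SE 0.09), miR-200a-3p -0.06 (SE 0.09), miR-200c-3p 0.01 (SE 0.09) and miR-141-3p -0.17 (SE 0.19). The sign of such small values followed the scaling, as miR-200b-3p and miR-200a-3p were at 0.04 and 0.01 with upper-quartile scaling and miR-200c-3p at -0.03 with library size only. With structural RNA overlaps left out and library size only, miR-92a-3p, miR-25-3p and miR-221-3p also turned negative, at -0.28, -0.07 and -0.19.

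In the gut epithelial pair, miR-192-5p had -0.31 (SE 0.09) and miR-194-5p -0.29 (SE 0.09), with both groups of libraries apart and ETBF below. Groups lay apart in that direction for 5 of the 23 tested entries of these clusters, and the matching share over all entries was not taken. Entries outside these clusters, such as miR-133a-3p, miR-122-5p and miR-1, lay apart in that direction too. With ETBF above it was 2 of the 23, against 19.5% of all 195 tested entries. Groups lying apart were thus common, and the 5 are not read as a trait of these clusters. miR-221-3p and miR-222-3p, repressors of the cell cycle inhibitor p27, had 0.18 (SE 0.09) and 0.09 (SE 0.10). The miR-23a/27a/24 cluster was uneven, with miR-23a-3p at 0.44 (SE 0.15) and miR-24-3p at -0.22 (SE 0.09). miR-99b-5p and let-7e-5p of a further cluster had -0.13 (SE 0.08) and -0.15 (SE 0.11).

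Pairs within the 8 other clusters had SDs of the log2 ratio from 0.0581 to 0.566, with a median of 0.163 over 25 pairs. The pair miR-183-5p and miR-182-5p lay below that median and both pairs with miR-96-5p above it. The change of a pair's log2 ratio between the groups was at most 0.09 in this cluster and at most 0.66 in the others, where the median was 0.22. Counting error differs widely between these pairs, so no order among clusters was drawn from the values.

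**Figure D4:**
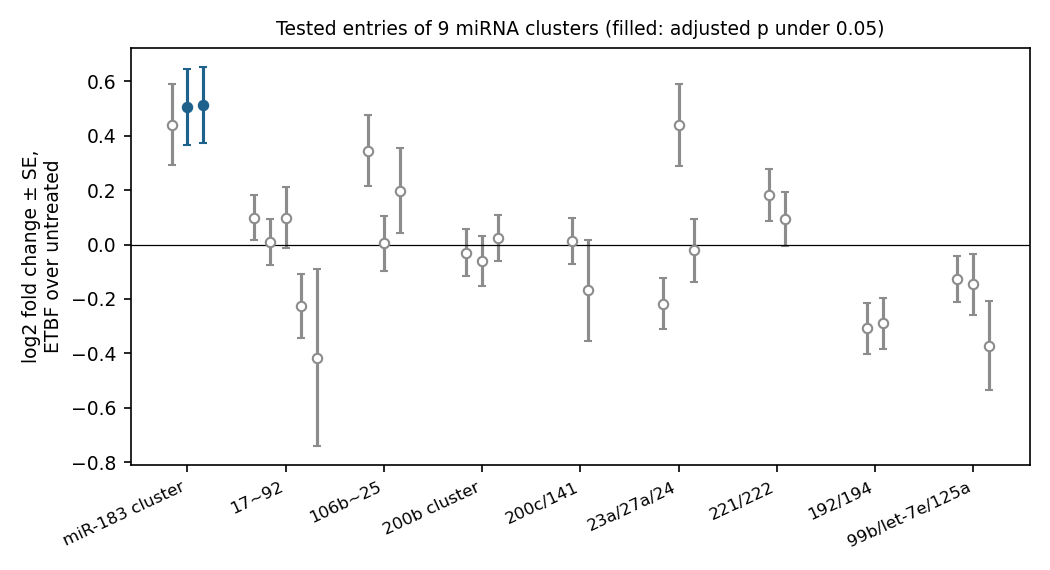
Log2 fold change of ETBF over untreated ± SE for the tested entries of 9 clusters, each ordered from the most to the least abundant entry; filled points have an adjusted p under 0.05. The 3 members of the miR-183 cluster lie between 0.44 and 0.51, and the entries of the other clusters run from -0.42 to 0.44.

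Other miRNAs known to be raised in colorectal tumours were listed as well. Of 11 listed, 8 were tested, 1 was higher, 0 were lower and 7 did not pass, a share close to the 10.8% of all tested entries called higher, with a median log2 fold change of 0.03 beside -0.03 over all tested entries. The one that rose was miR-95-3p, at 192.8 ± 16.8 CPM in ETBF libraries and 61.3 ± 38.2 CPM in untreated libraries (SD, n = 3, log2 fold change 1.54, SE 0.33, edgeR adjusted p = 0.0157). miR-21-5p, the most abundant of the list, had -0.03 (SE 0.12).

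The 5 entries whose log2 CPM followed the mean of the members most closely over the 6 libraries, among 131 other entries of at least 100 CPM, were miR-148b-3p, let-7i-5p, let-7g-5p, miR-186-5p and miR-100-5p. Their Pearson correlations were 0.986, 0.976, 0.970, 0.962 and 0.936. These describe likeness only, since the points share libraries, scaling and the difference between groups. All 5 were higher in ETBF libraries, by more than the members, where 10.8% of all tested entries were called higher. Choosing by likeness to members that differ between the groups favours such entries, so their rise is no separate result.

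miR-148b-3p, the nearest in size, stood at 2795, 3117 and 3927 CPM in ETBF replicates 1 to 3, against 1917, 2422 and 2056 CPM in untreated replicates 1 to 3. Like miR-183-5p and miR-182-5p it was highest in CPM in ETBF replicate 3 and, among untreated libraries, in replicate 2. The first of these depended on the scaling. As a plain share of all counts, miR-148b-3p held 0.331%, 0.311% and 0.304% of ETBF replicates 1 to 3, with replicate 3 the lowest of them. Its log2 fold change was 0.62 (SE 0.14, edgeR adjusted p = 0.0209). Those of let-7i-5p, let-7g-5p, miR-186-5p and miR-100-5p were 0.85, 0.83, 1.14 and 1.81 (SE 0.16, 0.12, 0.13 and 0.19).

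Markers of cell types were checked beside the members. Of 10 epithelial miRNAs, 9 were tested, of which 2 had a positive and 7 a negative log2 fold change, and their summed level was 38430 to 43840 CPM in ETBF libraries and 46180 to 47640 CPM in untreated libraries. Most of that gap lay in miR-203a, miR-192-5p and miR-194-5p, while the miR-200 entries were near 0 as given above. miR-203a averaged 10657 ± 965.9 CPM in ETBF libraries and 13194 ± 1136 CPM in untreated libraries (SD, n = 3, log2 fold change -0.31, SE 0.11, edgeR adjusted p = 0.0838). In edgeR 1 of the 9 was called, miR-375, which was lower (log2 fold change -0.61, SE 0.17, adjusted p = 0.0432) but did not pass in DESeq2 (adjusted p = 0.0503) or limma-voom (adjusted p = 0.0513). Of 7 blood-cell markers, 5 were tested and 0 passed in edgeR, DESeq2 or limma-voom (1 at an unadjusted p under 0.05, miR-142-5p at -0.46), and their summed level was 527.8 to 693.8 CPM in ETBF libraries and 669.3 to 729.2 CPM in untreated libraries. Of 9 markers of muscle, liver, neural and stromal tissue, 8 were tested and 0 passed in any of these tools (2 at an unadjusted p under 0.05, miR-133a-3p at -0.31 and miR-122-5p at -0.26), with sums of 25720 to 29650 CPM in ETBF libraries and 31340 to 32510 CPM in untreated libraries. Muscle miR-1 alone averaged 15856 ± 1631 CPM in ETBF libraries and 18228 ± 881.1 CPM in untreated libraries, which an epithelial line is not known for. Of all 195 tested entries, 14.4% were called in edgeR and 33.8% had an unadjusted p under 0.05. With lists this short, 0 calls lie near that share and do not show the markers to be unchanged. No marker of these 3 lists was at 0 in all libraries. Of the 7 entries listed as structural RNA overlaps, 3 were tested and all 3 were lower, and 3 were at 0 throughout. The part of any of these in the members' values was not tested, beyond the fits that leave the structural RNA overlaps out.

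**Figure D5:**
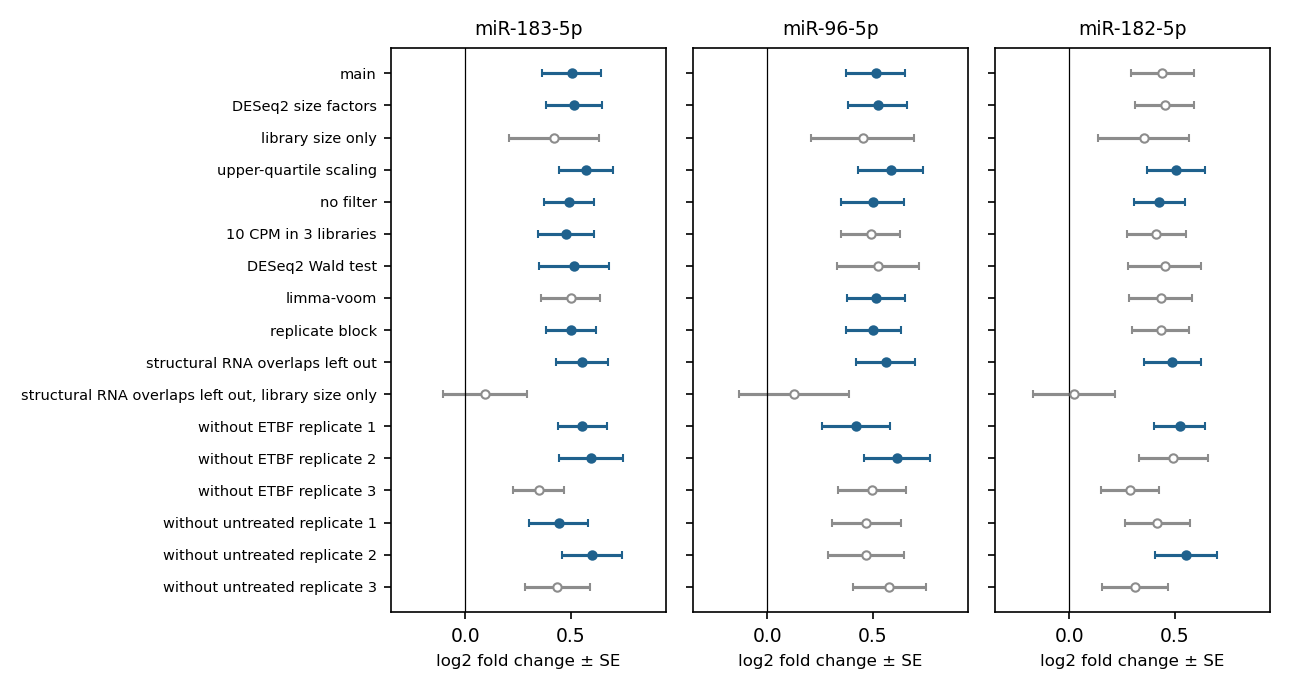
Log2 fold change of ETBF over untreated ± SE for each member under the reported setting (main) and 16 alternatives; filled points have an adjusted p under 0.05. All values are above 0, and the lowest, 0.02 to 0.13, come from scaling to library size with structural RNA overlaps left out.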

How the data were processed

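The submitters' processing notes name Trimmomatic, FastQC and featureCounts and the genome build GRCh37.p5. Aligner, versions, miRNA annotation and the handling of reads with several positions were not found in the labels or headers. The authors deposited whole-number counts per mature miRNA entry, 1 file per library, not normalised. Library totals were 200207 to 417321 counts.

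filterByExpr (minimum count 10) left 195 of 2575 entries. They were tested, two-sided, with edgeR's quasi-likelihood F-test after TMM scaling, with Benjamini-Hochberg adjustment over all of them and a threshold of 0.05. The SE was derived by dividing the absolute log2 change by the root of F, and 95% intervals use the degrees of freedom of the fit. Shares have exact Clopper-Pearson intervals. Replicates differed beyond sampling noise (chi-square over degrees of freedom 10.04 to 104.5), so none was merged. Members, lists and tests were chosen with earlier results of these data known. Named entries are the members, their 3p arms, entries of the same seed, the 5 most alike, and, from the colorectal list and each of the 8 other clusters, all that passed plus the 2 with most counts. miR-19a-3p, miR-203a, miR-375, miR-142-5p, miR-133a-3p, miR-122-5p, miR-148a-3p, miR-7-5p, miR-7641 and miR-1 were named after their values were seen.

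Scripts were tested on simulated data for this comparison, with 200 of 2575 entries changed and 200 tested. Calls reached 70% of the 10 tested entries with a 2-fold change and 100% of the 10 with a 4-fold change, 5.56% of calls were wrong, and data without any change gave 0 calls. Both groups were drawn from 1 mean profile, without the shift in structural RNA overlaps, and no change under 2-fold was simulated. The simulation therefore does not cover differences as small as those of the members. The software was edgeR 4.0.16, DESeq2 1.42.0 and limma 3.58.1 under R 4.3.3.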

Additional observations from a re-analysis of the deposited data

How the results depend on the processing

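Over 17 settings, the reported one included, the log2 fold changes of all 3 members were positive, but miR-183-5p passed in 12, miR-96-5p in 9 and miR-182-5p in 5. miR-183-5p no longer passed with library size only (0.42) or limma-voom (0.50), and miR-96-5p no longer with library size only (0.45), a filter of 10 CPM in 3 libraries (0.49) or DESeq2's Wald test (0.52). With structural RNA overlaps left out and library size only, the one setting added after the data were seen, neither passed (0.0943 and 0.13) and 43 entries were called. miR-182-5p passed with upper-quartile scaling (0.51), no filter (0.43) and structural RNA overlaps left out (0.49). Leaving out single libraries gave 0.35 to 0.60 for miR-183-5p, 0.42 to 0.61 for miR-96-5p and 0.29 to 0.55 for miR-182-5p. The count of calls, 28 as reported, was 51 without a filter and ran from 17 (without ETBF replicate 3, and without untreated replicate 3) to 59 (without ETBF replicate 1) over single libraries. Without ETBF replicate 1 the calls were 38 higher and 21 lower. The cause of these moves was not tested, apart from the fewer libraries. The differences in log2 ratio ran over single libraries from 0.02 to 0.13 for miR-183-5p to miR-182-5p, from -0.0945 to 0.27 for miR-96-5p to miR-182-5p and from -0.12 to 0.14 for miR-96-5p to miR-183-5p. The sign of the last 2 turned without ETBF replicate 1 (-0.0945 and -0.12) and without untreated replicate 2 (-0.05 and -0.10). A pseudocount of 0.5 changed no sign.

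The labels repeat replicate numbers 1 to 3 in both groups without saying that they mark a shared culture or day. Deviations from the group means correlated at 0.177, 0.103 and 0.0523 for same-numbered libraries, against -0.155 to 0.0734 for differently numbered ones. Only ETBF replicate 3 correlated better with another number, untreated replicate 2 (0.0734). The numbers were not taken as pairs, since the labels name none and these correlations were low, but pairing is not excluded. With the replicate block, 38 entries were called, and the log2 fold changes were 0.50 for miR-183-5p (adjusted p = 0.02), 0.50 for miR-96-5p (adjusted p = 0.0278) and 0.43 for miR-182-5p (adjusted p = 0.0502). The blocked differences in log2 ratio were 0.07, 0.09 and 0.02 with exact sign-flip p of 0.75, 0.75 and 1, where 0.25 is the smallest possible. Depth limits miR-96-5p most, at 57 to 147 counts, and the 3p arms could not be compared between the groups at 0 to 6 counts per library.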
